A study of Rattus norvegicus with 2 samples.

Results

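The 40 genes described here are genes in which changes cause hearing loss, chosen by name from a list made for this work. Earlier results of these data were known when the list was made. All 40 were listed once among the 32623 genes of the files. They were measured in cochlear duct cells of Sprague-Dawley rats, in 1 single-cell library from the first postnatal day (P1) and 1 from P7. By the methods each age group was 40 rats, whose cells were pooled, and the spiral ganglions, the spiral ligament and the stria vascularis were dissected away from the duct before its cells were dissociated. No animal carried a transgene or received a treatment by the labels. Since each age is 1 library, age and library cannot be told apart, no test was possible, and every interval given is a 95% interval for counting error only.

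Hair cells are the sensory cells of the cochlea. Sound bends the bundle of actin-filled stereocilia on their upper surface, tip links between the stereocilia open transduction channels, and calcium-driven release at ribbon synapses passes the signal to the neurons of the spiral ganglion. Around the hair cells, supporting cells and other epithelium hold the barrier and the ion gradients of the endolymph, the potassium-rich fluid that drives the transduction current. Many hearing loss genes therefore act in hair cells, while others act in the epithelium, in the stria vascularis or in cells of the neural crest.

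Barcodes were kept as cells where their UMIs (unique molecular identifiers, 1 per captured RNA molecule) numbered 500 or more, came from over 500 but under 5000 genes, and were less than 25% mitochondrial. They were 12779 of 14068 barcodes at P1 and 12581 of 14501 at P7, with medians of 6565 and 6878 UMIs, and 60 barcode sequences occurred in both libraries. The labels call the cells greater epithelial ridge cells, an epithelial type. Mesenchyme-like cells, however, made up 66.9% of the kept cells at P1 (interval 66.0 to 67.7%) and 58.4% at P7 (57.5 to 59.2%). Epithelium-like cells were 277 (2.17%) at P1 and 210 (1.67%) at P7, and all 10 epithelial markers listed were in the files. A neuron-like cluster held 287 cells at P1 and 0 at P7, where 79 kept cells in other clusters nonetheless had UMIs of at least 5 of the 9 neuron markers. Classes were named from marker genes, none of them among the 40, and the 40 genes were left out of the clustering.

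Of the 40 genes, 25 were measurable at P1, with at least 50 UMIs over all kept cells, against 42.3% of all genes. At P7 there were 18, against 41.1% of all genes, and 17 were measurable in both libraries. Another 10 genes at P1 and 11 at P7 were sparse, with 10 to 49 UMIs. Under 10 UMIs, too few to place a gene, were 5 genes at P1 (Tmc1, Strc, Slc26a5, Bsnd and Esrrb). At P7 they were 11, namely Pcdh15, Tmc1, Loxhd1, Strc, Ptprq, Otof, Slc26a5, Gipc3, Bsnd, Esrrb and Pou4f3. Most of these 11 are known from hair cells. Tmc1, a subunit of the transduction channel, had 6 UMIs at P1 and 2 at P7. Slc26a5, the motor protein prestin of outer hair cells, had 3 and 0. Strc, which encodes stereocilin of the links between stereocilia, had 9 and 1. Esrrb, a nuclear receptor, had 0 in both, which allows up to 0.0306 CPM (UMIs of the gene per 1000000 UMIs of the library or class) at P1 and 0.0322 at P7. Besides the 5 genes too rare at P1, Myo7a, Myo15a, Cdh23, Pcdh15, Loxhd1, Gipc3, Kcnq1, Pax3 and Tmprss3 stayed under 50 UMIs in both libraries, so that 14 of the 40 were measurable in neither.

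The libraries held few hair cells. A barcode was called hair-cell-like where it had UMIs of at least 3 of the 11 hair cell markers in the files, which included Atoh1, Gfi1 and Lhx3. At P1 there were 21 such barcodes among 12779 cells, or 0.164% (interval 0.102 to 0.251%), and at P7 there were 0 among 12581, which allows a share of up to 0.0238%. The count depended on depth, and after thinning each cell to 2000 UMIs it was 11 at P1. Of the 21 barcodes, 19 had at least 6 markers, while 10 further cells at P1 and 3 at P7 had 2 markers, just under the limit. All 21 fell into 1 cluster of 22 cells, formed without the markers or the 40 genes. Their median was 15033 UMIs against 6565 for all kept cells at P1, and Scrublet, a program that scores likely doublets, called none of them. Outside the limits on cells, 4 more barcodes at P1 and 1 at P7 had 3 or more markers.

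In these 21 barcodes a level at least 4-fold above the epithelium-like cells of P1, with intervals apart, was found for 11 of the 25 genes measurable at P1, and for 4.49% of all genes measurable there. The 11 were Myo6, Myo3a, Lhfpl5, Whrn, Clrn1, Cib2, Espn, Grxcr1, Ptprq, Otof and Pou4f3. The count describes these libraries and is no test, since Ptprq, Otof and Pou4f3 reached 50 UMIs only through the 21 barcodes and had 14, 40 and 15 UMIs elsewhere. Of all 40 genes, 31 had at least 1 UMI in the 21 barcodes, and 8 had over 50% of their P1 UMIs there (Myo7a, Myo3a, Tmc1, Loxhd1, Ptprq, Otof, Gipc3 and Pou4f3). Some of the 8 rested on few UMIs, as Tmc1 with 5 of 6 and Gipc3 with 11 of 19. The same shares were not taken over all genes, so both counts only describe these genes.

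Otof encodes otoferlin, the calcium sensor of synaptic release in hair cells. It had between 1 and 42 UMIs in each of the 21 barcodes, with a median of 10. These 275 UMIs were 87.3% of its 315 UMIs at P1. The level was 796 CPM (704 to 896) against 1.29 (0.266 to 3.76) in epithelium-like cells, a ratio of 618 (209 to 3014). Every hair-cell-like barcode thus held Otof, whereas 3 UMIs were found over 277 epithelium-like cells.

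Pou4f3, a transcription factor needed for hair cell survival, was found in 20 of the 21 barcodes, with 0 to 12 UMIs and a median of 4. Its 98 UMIs there were 86.7% of its P1 total, and epithelium-like cells had 0, so that its level was at least 220-fold higher than the 3 counts taken as a floor. Ptprq, a phosphatase of the shaft connectors of stereocilia, was also found in 20 of 21 (0 to 9, median 4), with 86.1% of its UMIs. Both genes were found mostly in these barcodes at P1, with 15 and 14 UMIs in all other kept cells. After the same thinning, Pou4f3 was in 36.4% and Ptprq in 27.3% of the cells of the hair-cell-like cluster.

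Lhfpl5 encodes a subunit of the transduction complex. It had 3 to 35 UMIs per barcode (median 17) in 21 of 21, and a level 816 times that of epithelium-like cells (277 to 3973). Cib2, a calcium-binding partner of that complex, had 2 to 116 (median 35), and its ratio was 14.9 (13.2 to 16.9). Clrn1, which encodes clarin 1 of Usher syndrome, had 0 to 4 UMIs (median 1) in 15 of 21 barcodes and a ratio of 53.9 (16.4 to 280). Only 4.09% of its P1 UMIs were in these barcodes. Its level there, 69.4 CPM (44.5 to 103), overlapped that of neuron-like cells, 79.8 (72.8 to 87.2). Whrn, the scaffold whirlin of the stereocilia tip, had 0 to 4 (median 1) and a ratio of 5.21 (2.60 to 10.3). Ush1c, which encodes the scaffold harmonin, differed from the others. It was found in 15 of 21 barcodes but reached only 1.26 times the epithelium-like level (0.805 to 1.92).

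Among the genes of the actin core, Espn, which encodes the actin bundler espin, had 5 to 41 UMIs per barcode (median 17) and a ratio of 13.2 (11.04 to 15.8). Grxcr1, a glutaredoxin-like protein of the bundle, had 1 to 18 (median 6) and a ratio of 62.6 (37.9 to 110). Both were found in every one of the 21 barcodes. After thinning, Espn was in 90.9% and Grxcr1 in 59.1% of the cells of the hair-cell-like cluster. Triobp, which packs the rootlets of stereocilia, and Tprn, taperin at their base, stayed under the 4-fold limit with ratios of 2.84 (1.97 to 4.05) and 3.48 (1.78 to 6.56). Actg1, a cytoplasmic actin, was 0.867 times the epithelium-like level (0.812 to 0.926). The formin Diaph1 had a ratio of 1.32 (0.625 to 2.55).

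Of the unconventional myosins, motors that move along actin, Myo6 had 7 to 93 UMIs per barcode (median 31) and a ratio of 27.0 (22.7 to 32.3). Only 5.29% of its P1 UMIs were in the 21 barcodes, since it was found in all classes. Myo3a had 0 to 17 (median 2) and was found in 17 of 21, with a level at least 175-fold above the floor of epithelium-like cells. Myo7a was found in 12 of 21 with 16 UMIs, against 0 UMIs in epithelium-like cells, and Myo15a in 4 with 4. These last values were too small to enter the 4-fold call.

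**Figure D1:**
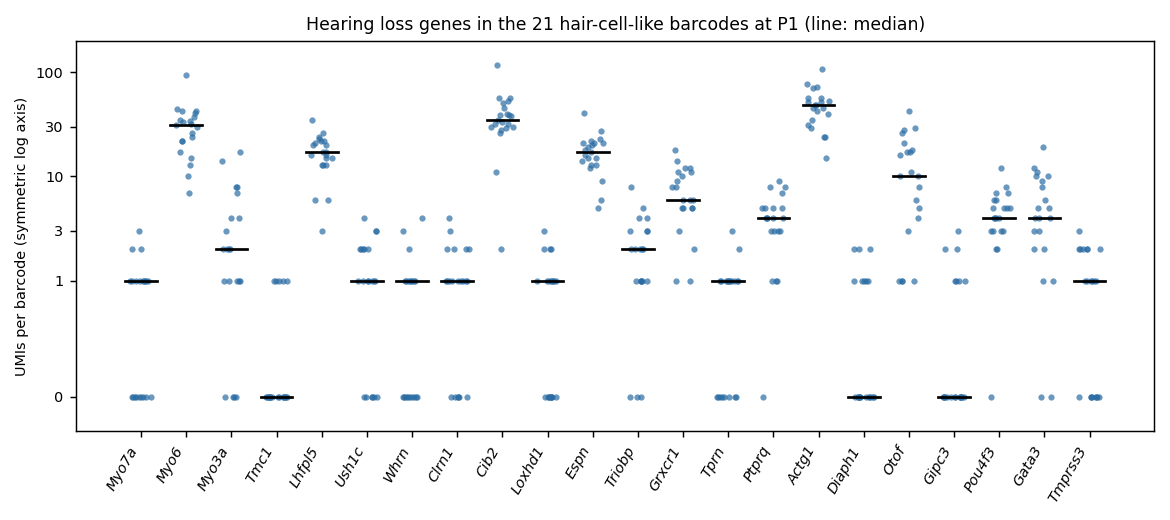
UMIs per barcode on a symmetric log axis for the 22 genes found in at least 5 of the 21 hair-cell-like barcodes at P1. Each point is 1 barcode and each line a median; Otof, Lhfpl5, Cib2, Espn, Grxcr1 and Myo6 were above 0 in all 21, while Tmc1, Diaph1 and Gipc3 had a median of 0.

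Gata3, a transcription factor of the developing inner ear, had a level in the 21 barcodes that was 0.668 times that of epithelium-like cells (0.549 to 0.808). Slc26a4, Kcnq1, Kcne1, Bsnd, Eya1, Pax3, Snai2, Gsdme and Esrrb had 0 UMIs there. A total of 345602 UMIs over the 21 barcodes allows a level of up to 8.68 CPM for each, so lower levels were not detectable at this depth.

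Promoters are shown for 4 of the 11 genes above, Otof, Espn, Lhfpl5 and Grxcr1, which were found in all 21 barcodes with at least 25% of their P1 UMIs there. RefSeq promoters were tabled for 33 of the 40 genes on the GRCr8 assembly, and the 250 bases before the start are printed 5′ to 3′ on the gene's strand. Capitals mark E-boxes of the form CAGNTG, read on either strand, a motif bound by basic helix-loop-helix factors such as Atoh1.
Otof (chr6:31647664-31647913, plus strand): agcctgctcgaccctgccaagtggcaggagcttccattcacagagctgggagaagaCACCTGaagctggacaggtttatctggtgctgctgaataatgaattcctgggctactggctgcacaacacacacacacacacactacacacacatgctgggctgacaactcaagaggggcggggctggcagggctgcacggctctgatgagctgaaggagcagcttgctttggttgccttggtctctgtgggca
Espn (chr5:167942985-167943234, minus strand): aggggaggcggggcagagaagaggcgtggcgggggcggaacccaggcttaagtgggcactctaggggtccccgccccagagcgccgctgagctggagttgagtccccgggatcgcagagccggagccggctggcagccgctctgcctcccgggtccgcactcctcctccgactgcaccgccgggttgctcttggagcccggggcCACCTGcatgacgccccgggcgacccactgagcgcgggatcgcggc
Lhfpl5 (chr20:6633808-6634057, plus strand): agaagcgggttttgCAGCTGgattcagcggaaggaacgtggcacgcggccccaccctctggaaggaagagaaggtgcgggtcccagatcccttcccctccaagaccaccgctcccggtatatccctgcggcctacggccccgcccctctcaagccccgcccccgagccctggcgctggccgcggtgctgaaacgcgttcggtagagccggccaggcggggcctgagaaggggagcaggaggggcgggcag
Grxcr1 (chr14:40480494-40480743, minus strand): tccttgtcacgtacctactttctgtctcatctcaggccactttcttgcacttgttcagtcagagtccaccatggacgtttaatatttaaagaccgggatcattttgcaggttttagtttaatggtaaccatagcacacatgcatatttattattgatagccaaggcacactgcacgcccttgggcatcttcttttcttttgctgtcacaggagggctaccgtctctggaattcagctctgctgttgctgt
Counted from the start at the first base of the match, the E-box lay at -194 in Otof, -46 in Espn and -236 in Lhfpl5, and Grxcr1 had none. Of the 9 genes of the call with a tabled promoter, 5 held at least 1 match, as did 43.3% of all 33469 promoters. A match is a run of letters and was not tested as a binding site.

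Over the classes of at least 50 cells, 15 of the 40 genes had their highest level in epithelium-like cells at P1 and 17 at P7, among those with at least 10 UMIs. Of all genes, 13.8% were highest in this class at P1 and 18.7% at P7. The highest class stood apart from the next, with intervals that did not overlap, for 5 of the 15 and 10 of the 17. Of the 35 and 29 genes with at least 10 UMIs, 5 and 10 were thus highest there and apart, against 3.81% and 5.97% of all genes. Among all genes highest in this class, 620 of 2254 stood apart at P1 and 956 of 2995 at P7. At P1 another 8 genes were highest in neuron-like cells, a class that led for 20.8% of all genes and had a median of 21179 UMIs per cell. The hair-cell-like cluster, with 22 cells, was too small to be compared, so that Otof and Ptprq were counted for epithelium-like cells on 3 and 2 UMIs and Pou4f3 for neuron-like cells on 4. Where another clustering joined it to the epithelium-like cells, the P1 counts became 25 to 27 for epithelium-like and 2 to 3 for neuron-like cells.

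Several genes of the hair bundle were found in neuron-like cells at P1. Lhfpl5 had 810 of its 1309 UMIs there, a level of 134 CPM (125 to 144) against 3.77 (2.75 to 5.05) in glia-like cells, the next class. Clrn1 had 482 of 587, or 79.8 CPM (72.8 to 87.2) against 2.85 (1.97 to 3.98), again in glia-like cells. A glia-like cluster of 155 cells lay above its class, with Lhfpl5 at 28.0 (19.0 to 39.8) and Clrn1 at 24.4 (16.1 to 35.5). These genes were found in a large share of the neuron-like cells and not in a few. Lhfpl5 was in 84.0% of them, and in 24.4% (19.5 to 29.8%) once each cell was thinned to 2000 UMIs. In the macrophage-like class it was found in 0 of 177 thinned cells, which allows up to 1.69%. Clrn1 was in 76.7% of the neuron-like cells and in 13.9% (10.1 to 18.5%) after thinning, against 0.565% of thinned macrophage-like cells.

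Ush1c and Espn were shared between neuron-like and epithelium-like cells. Ush1c was at 107 CPM (99.0 to 116) in neuron-like and 61.8 (52.1 to 72.8) in epithelium-like cells. Espn was at 102 (94.4 to 111) and 80.7 (69.6 to 93.1), and Grxcr1 at 19.9 (16.5 to 23.8) and 7.30 (4.25 to 11.7). For Cib2 the order was the other way, with 159 (143 to 176) in epithelium-like and 137 (128 to 147) in neuron-like cells, and those intervals overlapped. Of the 11 hair cell markers, 7 were found in the neuron-like class and their summed level was 14.6 CPM (11.7 to 17.9), against 1797 (1660 to 1943) in the hair-cell-like cluster; Atoh1, Lhx3, Barhl1 and Chrna10 were at 0.

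At P7, where no neuron-like cluster was found, Ush1c, Cib2, Espn and Grxcr1 were all highest in epithelium-like cells. Ush1c was at 116 CPM (101 to 133) against 3.81 (3.03 to 4.73) in the next class, and Grxcr1 at 46.6 (37.1 to 57.7) against 1.22 (0.149 to 4.41). Single clusters could lie well above their class. A glia-like cluster of 145 cells was at 36.4 (25.7 to 50.2) for Ush1c. The same cluster was at 13.8 (7.54 to 23.1) for Espn, which overlapped the epithelium-like level, 24.1 (17.5 to 32.5). Gata3 was highest in epithelium-like cells at both ages. It was at 515 (486 to 545) at P1, with neuron-like cells next at 273 (260 to 287), and at 499.97 (468 to 534) at P7, with dividing mesenchyme-like cells next at 5.79 (3.67 to 8.68). Ildr1, a protein of the corners where 3 cells meet, was highest in epithelium-like cells at both ages as well, with 41 of 53 UMIs at P1 and 89 of 100 at P7. Its partner Marveld2, which encodes tricellulin, was spread more evenly, and its epithelium-like level of 6.44 (3.604 to 10.6) at P1 overlapped that of neuron-like cells, 6.13 (4.31 to 8.44).

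Eya4, a transcriptional coactivator, stood highest in epithelium-like cells at both ages, with 9.87 CPM (6.26 to 14.8) at P1 and 7.86 (4.29 to 13.2) at P7. Tmprss3, a membrane serine protease, had 16 of 47 UMIs there at P1 and 31 of 34 at P7. Slc26a4, the anion exchanger pendrin, had 20 of 27 and 53 of 62. All 3 were apart from the next class at both ages, among classes of at least 50 cells. In the hair-cell-like cluster at P1, too small to be compared, Tmprss3 had 23 UMIs, or 65.1 CPM (41.3 to 97.7). Eya4 had 5 UMIs in that cluster, or 14.2 CPM (4.59 to 33.0), which overlapped its epithelium-like level.

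Other genes led outside the epithelium. Among classes of at least 50 cells, Myo6 was highest in mesenchyme-like cells, with 144 CPM (141 to 147) at P1 and 112 (109 to 115) at P7. It was apart from the next class at both ages. The hair-cell-like barcodes of P1, not compared here, had Myo6 at a higher level, 1881 CPM (1739 to 2031). Triobp was highest in endothelium-like cells at both ages, with 147 (130 to 165) and 137 (119 to 156), also apart from the next. Snai2, a neural crest transcription factor, was highest in dividing mesenchyme-like cells, with 29.5 (25.7 to 33.6) at P1 and 31.2 (26.0 to 37.2) at P7, and only at P1 was it apart from the next. Actg1 was found in every class and moved from epithelium-like cells at P1 to endothelium-like cells at P7. Diaph1 was highest in macrophage-like cells at P1, with 46.8 (36.6 to 59.1), overlapping endothelium-like cells at 37.2 (28.9 to 47.2). Gsdme, which encodes the pore-forming gasdermin E, had 128 of its 160 P1 UMIs in mesenchyme-like cells, the largest class. Its level there, 2.06 (1.71 to 2.44), overlapped that of pericyte-like cells, 1.56 (0.322 to 4.57).

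**Figure D2:**
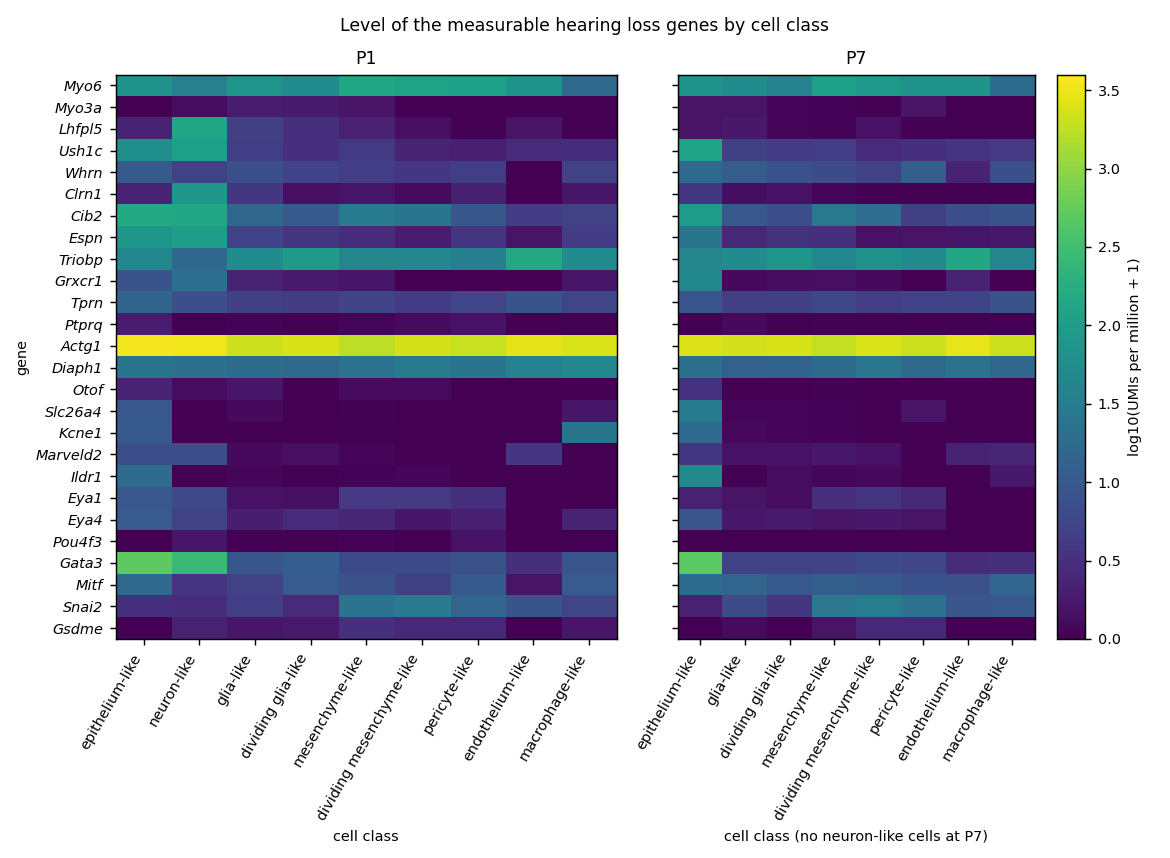
Level of the 26 genes measurable in at least 1 library, as log10(CPM + 1), in each class of at least 50 cells at P1 (left) and P7 (right). Lhfpl5 and Clrn1 are brightest in neuron-like cells at P1, and Gata3, Ildr1 and Slc26a4 in epithelium-like cells at P7; Kcne1 in macrophage-like cells comes from 1 barcode.

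Of the 29 genes whose highest class was named at both ages, 15 had the same class at both, a share that was not taken over all genes. The low genes are included in these counts with very few UMIs. Cdh23 and Pcdh15, the cadherins of the tip link, were highest in neuron-like cells at P1 on 1 UMI each, and Myo7a in macrophage-like cells on 4 UMIs.

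Over all kept cells, 26 of the 40 genes had at least 50 UMIs in the higher library and could be compared between ages. At least 2-fold lower at P7 were 12 of them, against 12.4% of all genes, and at least 2-fold higher was 1, against 11.2%. The median log2 ratio of P7 to P1 was -0.84 over the 26 genes and 0.05 over all 14200 genes compared. The minimum of 50 UMIs in the higher library lets in genes that are low in the other, as Pou4f3 and Otof were at P7, so these counts describe the 26 genes and show nothing beyond these libraries. In a pooled library, fewer cells of a type and less RNA per cell cannot be told apart.

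Among the 12 were Lhfpl5 and Clrn1, which had 61.9% and 82.1% of their P1 UMIs in neuron-like cells, and Otof and Pou4f3, which had 87.3% and 86.7% in hair-cell-like barcodes. Lhfpl5 had 1309 UMIs at P1 and 25 at P7, a log2 ratio of -5.64 (-6.27 to -5.07). Otof had 315 and 7, a log2 ratio of -5.42 (-6.74 to -4.36). Clrn1 had 587 and 23, a log2 ratio of -4.60 (-5.27 to -4.00). Pou4f3 had 113 and 0, so that its level at P7 was at least 35.8-fold lower. The others were Ptprq with a log2 ratio of -3.78, Espn with -2.61, Myo3a with -2.60, Gsdme with -1.79, Grxcr1 with -1.53, Gata3 with -1.39, Eya4 with -1.24 and Cib2 with -1.06. Where levels were averaged over cells rather than summed, 10 genes were lower, and Eya4 with -0.89 and Cib2 with -0.84 were not among them. Ush1c, at -0.98 (-1.13 to -0.83), stood just inside 2-fold. The gene higher at P7 was Slc26a4, with 27 and 62 UMIs and a log2 ratio of 1.27 (0.60 to 1.98), and Ildr1, with 0.99 (0.50 to 1.499), stood just below the limit. Under a limit of 10% mitochondrial UMIs, Slc26a4 had under 50 UMIs in both libraries and was no longer compared.

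Markers of neurons and hair cells were also lower at P7, and their part in these ratios was not tested. The 9 neuron markers summed to 709 CPM (704 to 715) at P1 and 51.4 (49.9 to 52.9) at P7, with all 9 found in both libraries. The 11 hair cell markers summed to 9.45 (8.85 to 10.1) and 2.05 (1.77 to 2.36), with Tmc2 at 0 at P7. The neuron-like and hair-cell-like clusters held cells of P1 only, so leaving them out took UMIs from P1 alone. Without these 2 clusters, 4 genes instead of 12 were at least 2-fold lower at P7 (Lhfpl5, Clrn1, Eya4 and Gsdme) and 2 were higher. Lhfpl5 then had a log2 ratio of -2.36, Clrn1 -1.80 and Gata3 -0.47. Grxcr1 turned from -1.53 to 0.67, and Ush1c from -0.98 to 0.34. Without the 21 hair-cell-like barcodes alone, 7 genes were lower.

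The limits on cells also bore on these levels. At P1, 262 of the 1289 barcodes outside the limits had UMIs of at least 5 of the 9 neuron markers, 200 of them with 5000 or more genes. They held 922 UMIs of Lhfpl5, against 905 in the 366 kept barcodes with as many markers. At P7 there were 13 such barcodes outside the limits and 79 kept. Over all barcodes, 14 of 27 genes compared were at least 2-fold lower at P7, and the share of all genes was not taken there. The methods describe separation of the spiral ganglions by microdissection, and whether as much of them remained at each age was not tested.

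**Figure D3:**
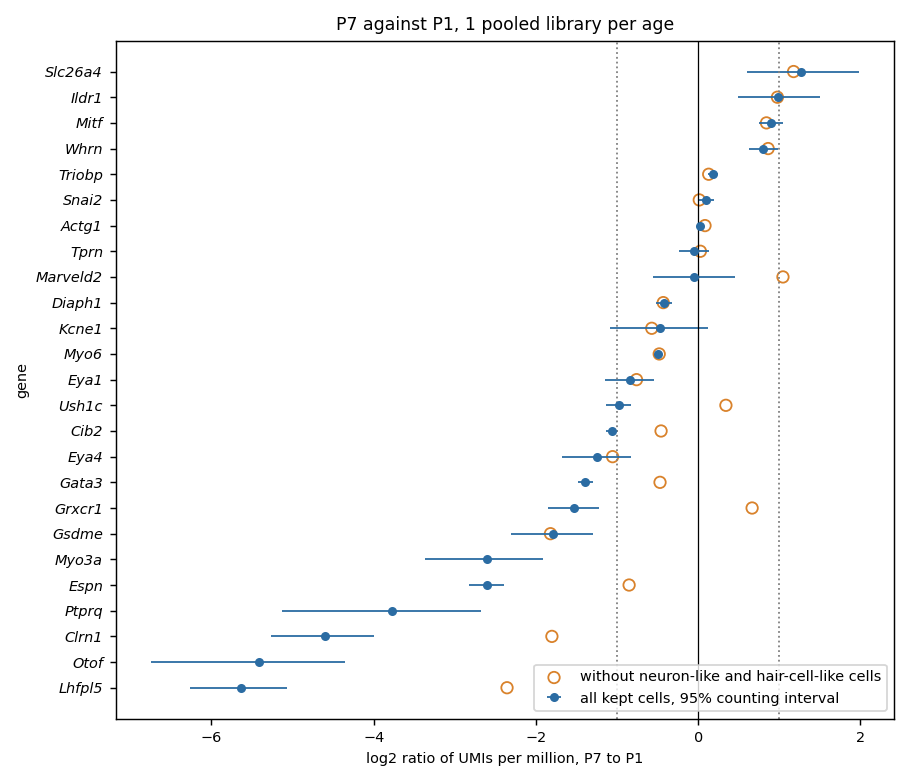
log2 ratio of CPM, P7 to P1, over all kept cells (filled points with 95% counting intervals) and without neuron-like and hair-cell-like cells (open circles), for 25 genes; dotted lines mark 2-fold. Open circles of Espn, Gata3, Cib2, Ush1c and Grxcr1 lie inside 2-fold; Pou4f3, with 0 UMIs at P7, has no ratio and is not drawn.

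Within epithelium-like cells, 18 of the 40 genes had at least 20 UMIs in the higher library. At least 2-fold higher at P7 were 4 (Grxcr1, Slc26a4, Ildr1 and Tmprss3), against 13.4% of all genes, and 2 were lower (Espn and Eya1), against 8.27%. The median log2 ratio was -0.03 over the 18 genes and 0.12 over all genes compared in this class. Grxcr1 rose from 7.30 to 46.6 CPM, a log2 ratio of 2.67 (1.91 to 3.52), opposite to its ratio over all cells. Its 83 UMIs at P7 were in 25 cells, 4 of which had 5 or more and 1 of which had 16, and none of those 4 had more than 1 hair cell marker. Slc26a4 went from 8.59 to 29.7 (log2 ratio 1.79, 1.03 to 2.61) and Ildr1 from 17.6 to 49.9 (1.505, 0.96 to 2.08). Tmprss3 went from 6.87 to 17.4 (1.34, 0.43 to 2.31). Espn went down from 80.7 to 24.1 (-1.74, -2.26 to -1.26), and Eya1, a coactivator of early ear development, from 20 UMIs to 2 (-2.94, -6.08 to -0.89). Gata3 was nearly level, at 515 and 499.97.

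**Figure D4:**
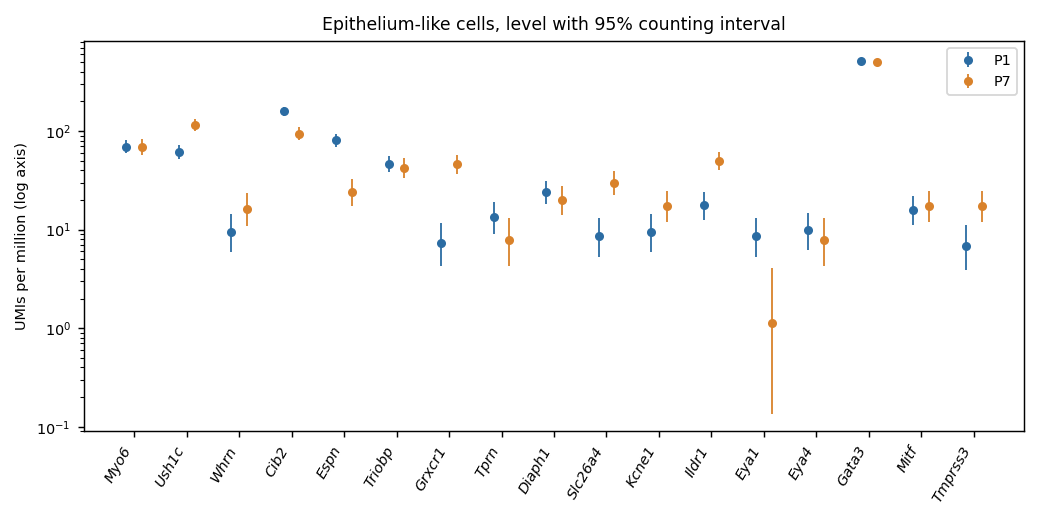
Level of 17 genes in epithelium-like cells at P1 (blue) and P7 (orange), in CPM on a log axis with 95% counting intervals; Actg1 is left out for scale. The intervals of Espn, Cib2 and Eya1 lie lower at P7 and those of Ush1c, Grxcr1, Slc26a4, Ildr1 and Tmprss3 higher, and those of Gata3 and Myo6 overlap.

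The makeup of this class was not the same at both ages. Clustered again, its cells gave 10 subclusters, E0 to E9, and several came almost only from 1 library. E2 had 71 cells at P1 and 2 at P7, E3 had 56 and 0, and E4 had 50 and 2. E0 had 1 and 87, with a median of 1312.5 UMIs, and E7 had 0 and 27. The values between ages above therefore rest partly on different subclusters, and how far was not tested.

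Genes of the bundle fell into different subclusters. E2, led by Ostn and Rbp4, held 248 UMIs of Cib2 and 113 of Espn, or 46.0% and 48.9% of their UMIs in epithelium-like cells. In E2, Cib2 was found in 63 of 73 cells and Espn in 49. E1, led by Grifin and Igfbp3, with 53 cells at P1 and 22 at P7, held 70.0% of the Grxcr1 UMIs, 32 UMIs of Tmprss3 and 106 of Ush1c. Of the 70 Grxcr1 UMIs, 68 came from P7 and 2 from P1, and they were in 12 of its 75 cells. Espn had 5 UMIs in E1, and Grxcr1 had 4 in E2. The supporting cell list was the best match of E1, with 3 of 6 markers found.

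E5, led by Oc90, Crhbp, Rgr and Ttr, held 62 UMIs of Slc26a4, or 84.9% of those in epithelium-like cells. It had 17 cells at P1 and 32 at P7, and its best match was the list of strial marginal cells, with 4 of 6 markers found. That list summed highest in pericyte-like cells at both ages, so the match does not name the subcluster. Kcne1 and Kcnq1, genes of marginal cells, were each found in 1 of the 49 cells of E5. Ildr1 was found there too, with 38 UMIs, as were 71 of Ush1c. E9, of 8 cells at P1 and 2 at P7, was melanocyte-like with 7 of 8 markers found and Gpnmb, Mlana and Pmel leading. Of Pax3, a neural crest factor upstream of Mitf, E9 held all 11 UMIs found in epithelium-like cells. Glia-like cells held 15 of the 31 Pax3 UMIs of P1. E9 also held 35 UMIs of Mitf, the master regulator of pigment cells. The epithelium-like level of Mitf therefore included pigment cells. E6 had 8 of 9 glial markers and E8 had 6 of 6 markers of Otor mesenchyme, with 6 of 31 and 11 of 26 cells called doublets.

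**Figure D5:**
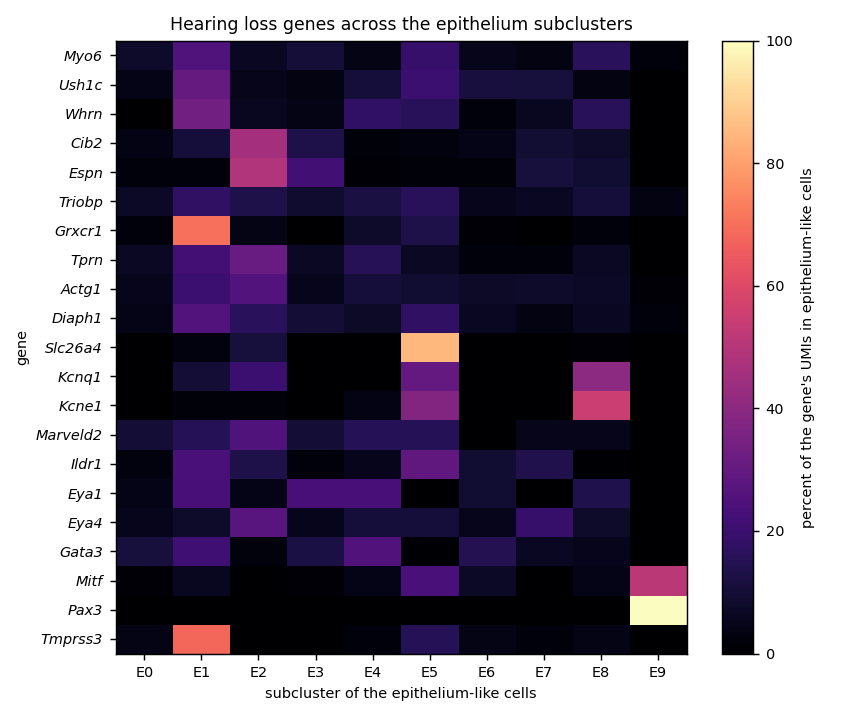
Share of the UMIs of each gene in epithelium-like cells, in percent, that fell into each of the subclusters E0 to E9, both ages together, for 21 genes. Pax3 lies in E9, Slc26a4 mainly in E5, Grxcr1 and Tmprss3 mainly in E1, and Cib2 and Espn most in E2.

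The genes of endolymph potassium transport were held by very few barcodes. Kcne1 and Kcnq1 form the potassium channel of the marginal cells of the stria vascularis, and Bsnd is the subunit of their chloride channels. Kcne1 had 60 UMIs at P1 in 5 cells, 37 of them in 1 barcode of the macrophage-like class that was called a doublet and 20 in 1 barcode of E5. Both barcodes also held 3 UMIs of Bsnd. At P7, 29 of its 41 UMIs were in 1 barcode of E8, together with 4 of Kcnq1 and all 3 of Bsnd. The highest class of Kcne1, macrophage-like at P1 and epithelium-like at P7, thus rested on 1 barcode at P1 and 1 at P7. Kcnq1 was more spread, with 34 and 40 UMIs and at most 3 and 4 in a barcode.

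In glia-like cells, of 14 genes compared, 4 were lower at P7 (Lhfpl5, Clrn1, Espn and Gata3), against 11.6% of all genes, and Mitf was higher, against 12.7%. Mitf went from 3.94 to 13.8 CPM (log2 ratio 1.81, 1.36 to 2.28). Clrn1 went from 2.85 to 0.371 (-2.94, -4.26 to -1.80) and Lhfpl5 from 3.77 to 0.743 (-2.34, -3.27 to -1.49). In the same glia-like cells the neuron markers summed to 341 (330.3 to 351) at P1 and 114 (110 to 119) at P7, all 9 found at both ages, and their part in the result was not tested.

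In mesenchyme-like cells, of 21 genes compared, 5 were lower at P7 (Myo3a, Lhfpl5, Clrn1, Eya4 and Gsdme), against 10.1% of all genes, and Marveld2 was higher, against 13.9%. Gsdme went from 128 UMIs to 29 (-1.96, -2.60 to -1.37) and Eya4 from 89 to 29 (-1.44, -2.09 to -0.82). Marveld2 went from 7 UMIs to 40 (2.70, 1.52 to 4.10). The neuron markers summed to 89.5 (87.2 to 91.9) in this class at P1 and 24.4 (23.1 to 25.7) at P7, and this was not tested as a source either. P1 and P7 mesenchyme-like and glia-like cells also lay largely in different clusters. In the remaining classes, Mitf was higher in dividing mesenchyme-like cells (1.27, 0.51 to 2.03) and Whrn in pericyte-like cells (1.62, 0.33 to 3.0998), while Gata3 was lower in dividing glia-like cells (-1.45, -2.31 to -0.59). In macrophage-like cells Diaph1 was lower (-1.62, -2.39 to -0.90), and Kcne1 went from 37 UMIs, all of them in the single barcode above, to 0.

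A second list of 83 hearing loss genes, 82 of them in the files, gave the setting for these values. Of these, 70 could be compared between ages over all kept cells, and 6 were lower and 9 higher at P7, with a median log2 ratio of 0.10. Of all genes, 12.4% were lower and 11.2% higher, shares near those of this list. The 5 with the lowest ratios were Grxcr2 with a log2 ratio of -6.44, Slc17a8 with -3.25, Smpx with -2.39, Otogl with -1.51 and Cabp2 with -1.46. Slc17a8 and Smpx were also among the markers that chose the hair-cell-like barcodes. Grxcr2, related to Grxcr1, had 275 UMIs at P1, 93.5% of them in the 21 barcodes, and 3 at P7. The 4 with the highest ratios were Sox10 with 2.06, Dcdc2 with 2.03, Col11a2 with 1.93 and Gjb6 with 1.73, of which Gjb6 encodes a gap junction connexin and Col11a2 a collagen of the tectorial membrane. Without neuron-like and hair-cell-like cells, 2 of the second list were lower (Otogl and Homer2) and 10 higher. Highest in epithelium-like cells were 24 of these genes at P1 and 25 at P7, 19 of them apart from the next class at each age. Of all genes, 13.8% were highest in this class at P1 and 18.7% at P7. Tecta, Otoa, Otog, Otogl, P2rx2, Lmx1a, Epyc and Esrp1, and at P7 Ceacam16, were themselves on the marker lists used to name epithelial clusters. These counts were thus partly set by the naming and are no test.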

How the data were processed

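Single-cell 3′ libraries (10x Genomics, version 3 chemistry) of rat cochlear duct were analysed from the deposited UMI counts per gene and barcode, which the authors made with Cell Ranger 3.1.0 on the rn6 genome, without normalization. With 114285848 UMIs at P1 and 101264868 UMIs at P7, counting intervals are narrow for abundant genes and wide for rare ones. Cells were kept by the limits of the study's methods and clustered in Seurat 5.3.0 (R 4.3.3) after log normalization to 10000, with 2000 variable genes less the genes described and all markers, 10 principal components and a resolution of 0.8. A cluster was named for the marker list with the highest mean log2 ratio, at least 1, with at least 3 markers in at least 10% of cells. The naming rule was set once clusters had been inspected. Dividing clusters stayed separate, and doublets (Scrublet, scanpy 1.11.5; 622 and 775 called) were kept.

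UMIs were summed per class and library and given as CPM, per 1000000 UMIs of the class. Exact Poisson, binomial and conditional binomial intervals at 95% were computed with scipy 1.17.1. Calls needed a 2-fold ratio and a minimum of 50 UMIs in 1 of the libraries, or 20 within a class. PCR copies are collapsed by UMIs, and free RNA was not removed. In simulated Poisson counts, the computations recovered most known changes between ages, all larger than 2-fold, and most known highest classes. The hair-cell-like call and the calls within classes were not simulated. All 40 genes were named by role; of the second list, the 5 largest ratios in each direction and the counts highest in epithelium-like cells were given, except 1 ratio that is not reported here. Genes and lists were chosen with earlier results of these data known. Alternatives were other clusterings, filters, totals, means per cell and limits.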

Additional observations from a re-analysis of the deposited data

Results flagged for a closer look

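Signal of hair cell markers was found in barcodes outside the limits on cells, which the comparisons did not use. At P1 there were 4 such barcodes with at least 3 of the 11 markers, 2 with too many genes and 2 with too many mitochondrial UMIs, which made 25 hair-cell-like barcodes among all 14068. At P7 there was 1, with 5511 genes and 32555 UMIs, among all 14501. In the 4 barcodes of P1, Otof had 9 UMIs, Pou4f3 7, Espn 22 and Lhfpl5 16. In the barcode of P7, Otof, Pou4f3, Espn and Lhfpl5 each had 0 UMIs, while Gata3 had 27. Its markers alone therefore do not name it a hair cell.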

How the results depend on the processing

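No paired analysis was possible because each age is 1 library. Genes highest in epithelium-like cells at P1 went from 15 to 25 with canonical correlation integration, 27 at a resolution of 0.4 and 26 with all variable genes kept, and those highest in neuron-like cells from 8 to 2, 2 and 3; in these clusterings the 21 hair-cell-like barcodes lay within the epithelium-like cells. With under 10% mitochondrial UMIs, genes highest in epithelium-like cells at P7 went from 17 to 11. Genes at least 2-fold lower at P7 went from 12 to 4 under that limit, which left 2 of the 21 hair-cell-like barcodes and 59 of 287 neuron-like cells, to 4 without neuron-like and hair-cell-like cells and to 7 without hair-cell-like barcodes. Genes at least 2-fold higher went from 1 to 2 with all barcodes, under 10% mitochondrial UMIs, with doublets left out, and without either set of cells, and to 0 with a minimum of 100 UMIs; under the mitochondrial limit they were Marveld2 and Ildr1, without Slc26a4. Of the second list, those lower went from 6 to 2 under 10% mitochondrial UMIs and without either set of cells. The ratio of Grxcr1 reversed, to 0.34 under 10% mitochondrial UMIs and 0.67 without neuron-like and hair-cell-like cells. Hair-cell-like barcodes at P1 were 11 after thinning to 2000 UMIs, and at P7 they were 3 with at least 2 markers and 1 over all barcodes. The alternatives without sets of cells were chosen after seeing the data, and the cells left out came from P1 only. Of 211 log2 ratios recomputed for 25 genes, 170 stayed within their counting interval. With 1 library per age, differences between animals and preparations could not be measured, and genes under 10 UMIs were given no highest class.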
